A study of Mus musculus with 12 samples.

Results

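The common gamma chain receptors and the JAK and STAT proteins that carry their signal were examined in CD8 T cells of mice with and without TCF-1, the transcription factor encoded by Tcf7. The 10 genes were chosen by symbol, 10 of the 35855 genes to which the deposited transcripts could be joined: Il2rg, Il2rb, Il2ra, Il15ra, Il4ra, Jak1, Jak3, Stat5a, Stat5b and Stat3. There were 12 RNA-seq libraries in 4 groups of 3. WT and TCF-1 cKO donor cells, both on the C57BL/6 background, were taken from spleen and sequenced pre-transplant, and donor cells of the same genotypes were sorted back from the spleen of lethally irradiated, MHC-mismatched BALB/c recipients at day 7 post-transplant. TCF-1 cKO mice carry a floxed Tcf7 allele and a Cd4-driven Cre, which acts at the double-positive stage of the thymus and so in CD4 as well as CD8 T cells. Recipients also received WT bone marrow depleted of T cells. The labels do not say whether the libraries of a group came from separate mice, so p-values measure the spread between these libraries, part of which may be technical.

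The gamma chain encoded by Il2rg is shared by the receptors for IL-2, IL-4, IL-7, IL-9, IL-15 and IL-21. Cytokine binding brings this chain, which carries JAK3, next to a partner chain, which carries JAK1, and the paired kinases phosphorylate STAT proteins that then enter the nucleus. In CD8 T cells IL-2 and IL-15 act mainly through STAT5A and STAT5B, and IL-21 acts mainly through STAT3.

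The transcripts of these genes differ in base composition, and the genotype difference at day 7 ran with GC content across all genes. Stretches of 90 coding bases are therefore shown for 4 genes, with G and C in capitals. Each is the in-frame stretch whose GC content lies closest to that of its whole transcript, in the sequences of GENCODE M21 (build GRCm38). The 4 genes run from the lowest GC content of the set to the highest.
Il2ra-201: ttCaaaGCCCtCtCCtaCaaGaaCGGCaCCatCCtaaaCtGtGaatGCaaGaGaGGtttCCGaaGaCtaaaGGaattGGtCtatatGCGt
Jak1-201: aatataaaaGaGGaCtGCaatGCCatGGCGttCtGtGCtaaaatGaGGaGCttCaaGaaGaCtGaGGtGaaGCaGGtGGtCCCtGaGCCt
Il2rb-201: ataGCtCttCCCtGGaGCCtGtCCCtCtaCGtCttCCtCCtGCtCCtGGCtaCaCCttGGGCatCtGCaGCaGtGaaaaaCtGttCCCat
Jak3-201: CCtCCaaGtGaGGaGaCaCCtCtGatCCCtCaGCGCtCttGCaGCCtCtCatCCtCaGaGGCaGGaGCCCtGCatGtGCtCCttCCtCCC
The Il2ra stretch holds 40 G or C bases of 90, the Jak1 stretch 43, the Il2rb stretch 49 and the Jak3 stretch 55.

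Averaged over the transcripts of each gene, GC content was 45.2% for Il2ra, 48.6% for Il2rg, 50.5% for Il15ra, 52.4% for Stat3, 53.0% for Jak1, 55.0% for Il2rb, 56.1% for Il4ra, 56.3% for Stat5b, 57.0% for Stat5a and 60.8% for Jak3. The median of all genes tested at day 7 was 49.7%. For Jak1 the average is carried by short transcripts that take few reads: weighted by TPM (the Kallisto level scaled for transcript length and library depth), its GC content lay between 47.8% and 50.7% in the 12 libraries.

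In GRCm38, Il2ra (chromosome 2, 11642807 to 11693193) and Il15ra (chromosome 2, 11705290 to 11734317) are neighbours on the plus strand. Stat5b (chromosome 11, 100780731 to 100850724, minus strand), Stat5a (100859351 to 100885169, plus strand) and Stat3 (100885098 to 100939540, minus strand) lie side by side. Stat5a and Stat3 overlap at their 3′ ends. Il2rg is on chromosome X, Il2rb on chromosome 15, Il4ra on chromosome 7, Jak1 on chromosome 4 and Jak3 on chromosome 8. The coding sequences of Stat5a and Stat5b share an exact run of 324 bases, and 35.4% of the 31-base words of the Stat5a coding sequence also occur in that of Stat5b. Over the whole transcripts that hold these coding sequences, 23.4% of the words of Stat5a and 16.6% of those of Stat5b were shared. Reads from those words cannot be given to 1 of the paralogs by their sequence alone, so the split between Stat5a and Stat5b rests in part on the estimate made by Kallisto.

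Library totals lay between 18184814 and 32657005 estimated counts in the day 7 libraries, between 18978963 and 28884454 in WT pre-transplant and between 4520270 and 9577076 in TCF-1 cKO pre-transplant. Every one of the 10 genes passed the filter on low counts in all comparisons. Tcf7 lay between 49.7 and 87.1 TPM in WT and between 22.1 and 38.6 TPM in TCF-1 cKO pre-transplant. At day 7 it was 6.55, 4.69 and 2.23 TPM in the 3 WT libraries and between 2.79 and 2.97 TPM in TCF-1 cKO. The library labelled WT replicate 3 thus lay below all TCF-1 cKO libraries, and the calls of the 10 genes between the genotypes at day 7 and in the interaction are given with and without it. TCF-1 cKO replicate 2 of day 7 carries a CD4 T cell source label beside a CD8 title, and Cd4 was between 0.453 and 1.85 TPM in its group. Cd8a lay between 112 and 183 TPM in all day 7 libraries, whereas the summed TPM of 8 B cell markers fell from 6392 to 13151 pre-transplant to 121 to 314 at day 7. The pre-transplant libraries also held Cd4 (18.8 to 48.9 TPM), and Cd8a there was 60.0 to 99.8 TPM in WT and 18.1 to 24.6 TPM in TCF-1 cKO. Summed TPM in these libraries was 11997 to 56526 for 6 erythroid, 9957 to 34000 for 4 plasma cell and 1274 to 2793 for 6 myeloid markers. For 7 CD8 T cell markers it was 765 to 1651. In bulk libraries such as these, fewer cells of a type and less RNA per cell cannot be told apart.

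At day 7, 7 of the 10 genes were lower in TCF-1 cKO than in WT at an FDR below 0.1 by edgeR's quasi-likelihood test (Benjamini-Hochberg adjusted over all genes): Il2rg, Il2rb, Il4ra, Jak3, Stat5a, Stat5b and Stat3. The test called 15.4% of all 16026 genes tested lower. None of the 10 was called higher, against 2.51% of all genes, and Il2ra, Il15ra and Jak1 did not pass. The median log2 fold change of the 10 genes was -2.45, beside 0.15 for all genes tested.

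Of the 45 genes of 9 cell type marker lists tested at day 7, which include 7 markers of CD8 T cells themselves and, in the regulatory T cell list, Il2ra, 6 were called lower in TCF-1 cKO and 1 higher by the same test. Over all genes tested, 15.4% were called lower and 2.51% higher. Those called lower were Nkg7 (-2.95), Cd3e (-2.81), Foxp3 (-3.99), Itgax (-2.34), Zbtb7b (-3.34) and Hba-a2 (-3.18), on the log2 scale, and Lyz2 was called higher (2.16). The summed TPM of 4 NK cell markers was 2745 to 9950 in WT and 884 to 1292 in TCF-1 cKO, but nearly all of it was Nkg7 (2737 to 9947 and 877 to 1284 TPM). The list's median log2 fold change was 0.10, and its members went in both directions. Ncr1 lay at 0.866 to 2.31 TPM in WT and 3.59 to 5.56 TPM in TCF-1 cKO (log2 fold change 1.51, not called). Klrb1c lay at 1.92 to 6.02 TPM in WT and 1.36 to 3.71 TPM in TCF-1 cKO (-1.18, not called). Klra8 was at 1.38 on the log2 scale and was not called. The summed TPM of the 7 CD8 T cell markers was 3349 to 3896 in WT and 4240 to 5006 in TCF-1 cKO, a difference in which Cd3g had the largest part (170 to 1035 and 1364 to 2070 TPM, not called). The median log2 fold change of that list was -0.39, opposite in sign to its sum, with 1 of 7 called lower and none higher. The part of these markers in the results was not tested.

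**Figure D1:**
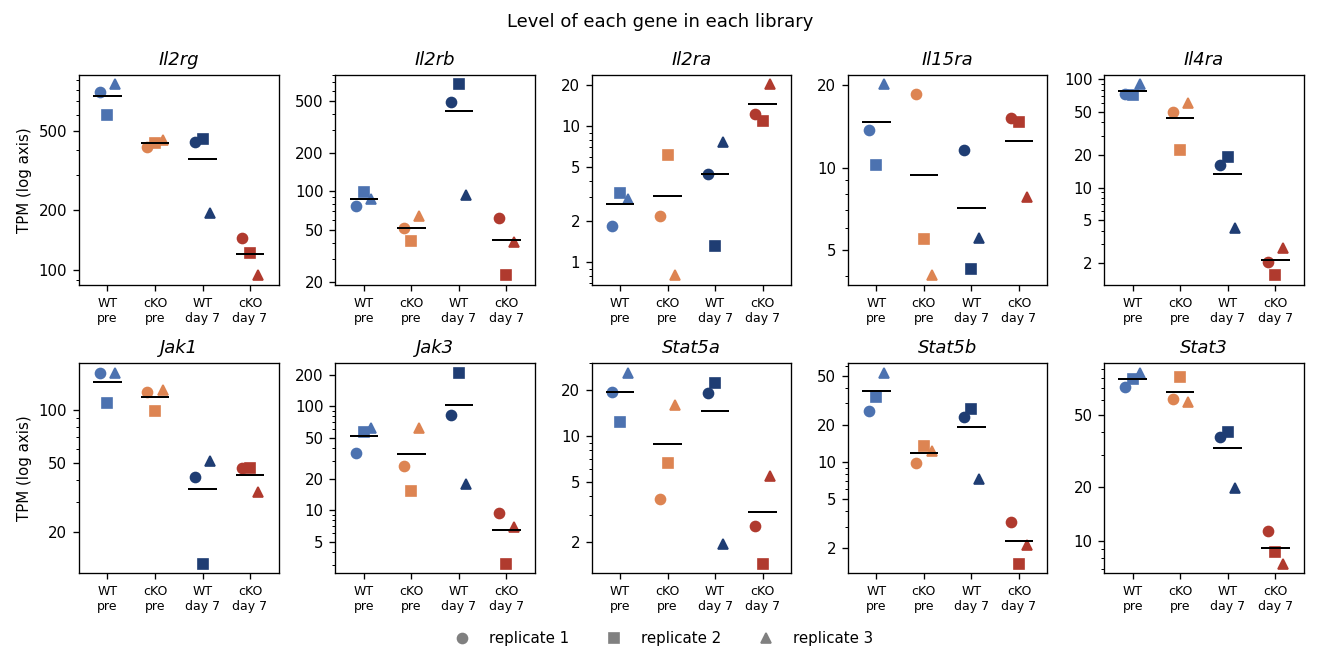
Level in TPM (log axis, a different range in each panel) of the 10 genes in each of the 12 libraries, by group. Symbols mark the replicate number and black lines the mean of 3 libraries. At day 7 the library labelled WT replicate 3 lies between the other WT libraries and the TCF-1 cKO libraries for Il2rg, Il2rb, Il4ra, Jak3, Stat5b and Stat3.

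Il2rg, the shared signalling chain, was at 437, 453 and 194 TPM in the WT libraries and at 145, 122 and 94.5 TPM in the TCF-1 cKO libraries of day 7. The groups did not overlap, and the library labelled WT replicate 3 was the lowest of the WT libraries. The log2 fold change was -1.86 ± 0.51 (SE, n = 3 per group, edgeR's quasi-likelihood test, adjusted p = 0.0552).

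Il2rb, the chain that IL-2 and IL-15 receptors share, was at 497, 675 and 94.2 TPM in WT and at 62.5, 22.4 and 40.9 TPM in TCF-1 cKO. Its mean fell from 422 ± 297 TPM to 42.0 ± 20.1 TPM (SD, n = 3). The groups did not overlap, with a log2 fold change of -3.53 ± 0.77 (SE, edgeR's quasi-likelihood test, adjusted p = 0.0448). WT replicates 1 and 2 stood apart from the library labelled WT replicate 3, so that most of the spread lay within WT.

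Of the other receptor chains, Il4ra passed and Il2ra and Il15ra did not, and differences between the chains were not tested. Il2ra, the alpha chain of the IL-2 receptor, was at 4.48, 1.32 and 7.71 TPM in WT and at 12.3, 11.01 and 20.4 TPM in TCF-1 cKO. All 3 TCF-1 cKO libraries lay above all WT libraries, but the log2 fold change of 1.53 ± 0.56 did not pass (edgeR's quasi-likelihood test, adjusted p = 0.118). It did pass by limma on log2(TPM + 1) (1.65, adjusted p = 0.0682), which called 9.74% of 11597 genes higher and 19.3% lower. For scale, TPM did not overlap in this direction for 22.1% of all genes tested.

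Il4ra, the ligand-binding chain for IL-4, was low at this stage, at 16.3, 19.2 and 4.27 TPM in WT and at 2.06, 1.54 and 2.78 TPM in TCF-1 cKO. The groups did not overlap, and the log2 fold change was -3.19 ± 0.71 (SE, edgeR's quasi-likelihood test, adjusted p = 0.0448). Most of this TPM was assigned to Il4ra-205, annotated under nonsense-mediated decay and not as protein-coding. Its share was 90.3% to 94.2% in the WT libraries and 62.9% to 72.8% in the TCF-1 cKO libraries. Il15ra, which binds IL-15 and presents it to other cells, overlapped between the groups, with 11.6, 4.26 and 5.51 TPM in WT and 15.1, 14.7 and 7.79 TPM in TCF-1 cKO. Its log2 fold change was 0.67 ± 0.57 (edgeR's quasi-likelihood test, adjusted p = 0.473).

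Jak3, the kinase carried by the gamma chain, was at 83.0, 211 and 18.0 TPM in WT and at 9.36, 3.06 and 6.84 TPM in TCF-1 cKO, without overlap. Its log2 fold change of -4.40 ± 0.99 was the lowest of the set (SE, edgeR's quasi-likelihood test, adjusted p = 0.0448). Jak1 was at 41.7, 13.2 and 51.5 TPM in WT and at 46.9, 47.0 and 34.1 TPM in TCF-1 cKO. Those groups overlapped, with WT replicate 2 the lowest of the 6 libraries, and the log2 fold change was 0.12 ± 0.47 (edgeR's quasi-likelihood test, adjusted p = 0.882). The difference between the 2 kinases was not itself tested.

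Of the transcription factors, Stat5b was at 22.9, 26.9 and 7.31 TPM in WT and at 3.24, 1.51 and 2.12 TPM in TCF-1 cKO, with a log2 fold change of -3.44 ± 0.73. Stat3 was at 37.6, 40.3 and 19.6 TPM in WT and at 11.3, 8.71 and 7.48 TPM in TCF-1 cKO, with a log2 fold change of -2.21 ± 0.51. Neither gene overlapped between the groups, and both had an adjusted p of 0.0448 by edgeR's quasi-likelihood test. Stat5a was at 19.0, 22.4 and 1.95 TPM in WT and at 2.54, 1.44 and 5.41 TPM in TCF-1 cKO. The library labelled WT replicate 3 lay among the TCF-1 cKO libraries for Stat5a, and the call was near the threshold (log2 fold change -2.70 ± 0.91, SE, edgeR's quasi-likelihood test, adjusted p = 0.0972). By limma on log2(TPM + 1) it did not pass (-1.55, adjusted p = 0.164).

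In TPM, 6 of the 10 genes were lower without overlap (16.5% of all genes tested were) and 1 was higher without overlap (22.1% of all genes tested were). By the two-sided exact permutation test on log2(TPM + 1) each of these 7 genes had p = 0.1, the smallest that 3 libraries against 3 can give, and no gene of the set could pass 0.05 by that test.

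Without the library labelled WT replicate 3, 8 of the 10 genes passed, and Il2ra joined the 7 with a log2 fold change of 1.98 (edgeR's quasi-likelihood test, adjusted p = 0.0357). In that fit 5299 of 18183 genes passed, 19.4% of all genes lower and 9.72% higher. In TPM, 7 of the 10 genes were then lower without overlap, Stat5a among them, beside 24.1% of all genes, and Il2ra was higher without overlap, beside 36.2%. Without any 1 of the other 5 libraries, TCF-1 cKO replicate 2 included, none of the 10 passed, and in those fits 0 to 2 genes of all tested passed, with adjusted p between 0.109 and 0.248 for the 7 genes by the same test. Their log2 fold changes then stayed negative, from -1.54 to -2.11 for Il2rg and from -3.17 to -4.89 for Jak3.

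**Figure D2:**
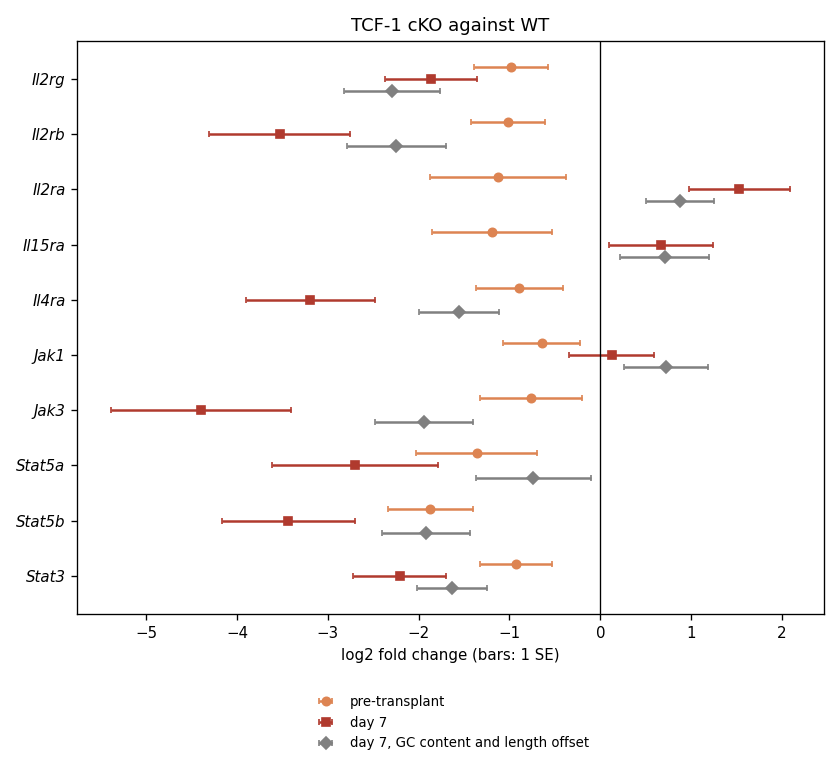
Log2 fold change of TCF-1 cKO against WT for the 10 genes (horizontal axis, bars 1 SE), pre-transplant, at day 7, and at day 7 after an offset for GC content and length. All 10 points lie below 0 pre-transplant, from -0.65 to -1.87, and at day 7 Il2ra, Il15ra and Jak1 lie above 0.

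The genotype difference at day 7 was set against GC content. Across all 16026 genes tested, Spearman's rho between GC content and log2 fold change was -0.55, as a description over genes that share libraries. Among the 10 genes it was -0.83, and the 3 genes that were not lower (Il2ra, Il15ra, Jak1) had GC contents from 45.2% to 53.0%. Il2rg (48.6%) and Stat3 (52.4%), both called lower, also lay in that range. The mean GC content of genes (each the average of its annotated transcripts), weighted by their counts, moved with the genotype. It was 50.2% to 53.6% in the WT libraries and 48.3% to 49.5% in the TCF-1 cKO libraries of day 7. Base composition and genotype cannot be told apart by library. Each gene was therefore placed among the 801 or 802 tested genes of its own GC bin, 1 of 20 bins of equal size.

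The median log2 fold change of genes with its GC content was 0.41, and Il2rg lay 2.27 below it, at percentile 2.62 (7.74 when GC content was taken from the longest transcript). Il2rb also lay 2.27 below its bin median of -1.26, at percentile 4.99 (4.61 by the longest transcript), and Jak3 lay 1.76 below a bin median of -2.63, at percentile 3.37 (3.24). Stat3, Il4ra and Stat5b lay between 1.42 and 1.53 below their bins, and by its longest transcript Stat5b lay 2.55 below its bin, at percentile 3.87 in place of 15.4. Stat5a was 0.69 below a bin median of -2.01, at percentile 34.2, within the middle of the genes of like GC content. Il2ra lay 0.81 above a bin median of 0.72. Jak1 lay 0.80 above its bin by the average of its transcripts and 0.26 below the bin of its longest transcript. Without the library labelled WT replicate 3, the differences from the bin median were -2.84 for Il2rg, -2.74 for Il2rb and -2.08 for Jak3, at percentiles 1.43, 5.06 and 3.63.

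**Figure D3:**
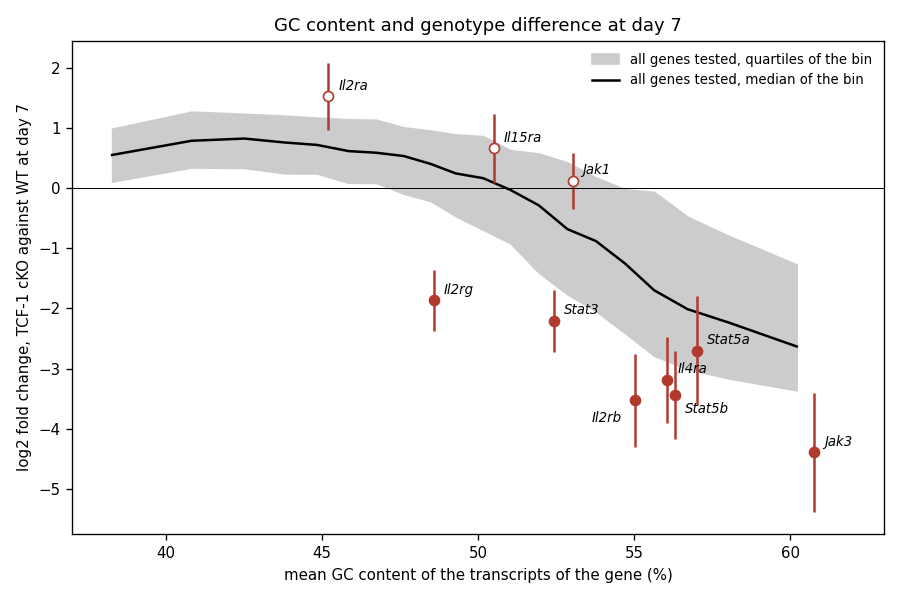
Log2 fold change of TCF-1 cKO against WT at day 7 (vertical axis, bars 1 SE) against mean GC content of the gene's transcripts (horizontal axis, %). Black line and grey band are the median and quartiles of all tested genes in 20 GC bins, filled points passed the FDR of 0.1 and open points did not. Il2rg and Il2rb each lie 2.27 below their bin medians, and Stat5a lies within the grey band.

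Removing each library's trend on GC content and length left 4 of the 10 genes called lower, beside 4.14% of all genes tested. These were Il2rg (-2.30 ± 0.53, adjusted p = 0.091), Il2rb (-2.25 ± 0.55, adjusted p = 0.092), Stat5b (-1.92 ± 0.48, adjusted p = 0.0928) and Stat3 (-1.64 ± 0.39, adjusted p = 0.0913), all as log2 fold change ± SE by edgeR's quasi-likelihood test. The 4 adjusted p-values all lay close to the threshold. Jak3 (-1.94 ± 0.54, adjusted p = 0.101) and Il4ra (-1.55 ± 0.44, adjusted p = 0.104) then lay just outside it by edgeR's quasi-likelihood test. Stat5a was reduced to -0.74 ± 0.63 and Il2ra to 0.88 ± 0.38 (edgeR's quasi-likelihood test, adjusted p = 0.524 and 0.212). The same 4 genes were called when GC content and length were taken from the longest transcript, an alternative chosen after seeing the data. The offset without the library labelled WT replicate 3, also chosen after seeing the data, called all 7 genes lower, beside 13.7% of all genes, with adjusted p from 0.00851 for Il2rg to 0.0945 for Stat5a by edgeR's quasi-likelihood test.

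Pre-transplant, none of the 10 genes passed, and edgeR's quasi-likelihood test called 0.0373% of 18757 genes in all. All 10 log2 fold changes were negative, with a median of -1.001 beside 0.05 for all genes tested, and 4 of the 10 had an unadjusted p under 0.05, beside 17.7% of all genes. DESeq2's Wald test called 1 of the 10, Stat5b, and 1451 of the 18757 genes (7.74%). Stat5b had the lowest value, at 25.7, 33.5 and 52.8 TPM in WT and 9.86, 13.4 and 12.2 TPM in TCF-1 cKO, a log2 fold change of -1.87 ± 0.47 (edgeR's quasi-likelihood test, adjusted p = 0.199).

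Il2rg pre-transplant was at 779, 600.3 and 852 TPM in WT and at 414, 433 and 448 TPM in TCF-1 cKO, a log2 fold change of -0.98 ± 0.41 (edgeR's quasi-likelihood test, adjusted p = 0.259). Il2rb ranged from 76.6 to 99.4 TPM in WT and from 41.2 to 64.9 TPM in TCF-1 cKO, and Il4ra from 72.3 to 90.2 TPM and from 22.2 to 61.1 TPM. With Stat5b, these were the 4 genes whose TPM was lower in TCF-1 cKO without overlap, beside 7.9% of all genes tested. Jak3 overlapped, since TCF-1 cKO replicate 3 stood at 61.6 TPM, above all 3 WT libraries (36.0, 57.2 and 61.5 TPM), while the other TCF-1 cKO libraries were at 26.7 and 15.4 TPM.

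That library also decided the calls. Without TCF-1 cKO replicate 3, 7 of the 10 genes passed pre-transplant, namely Il2rg, Il2rb, Il4ra, Jak3, Stat5a, Stat5b and Stat3, all lower, beside 8.91% of all genes, and 2739 genes passed in all. With all libraries, none of the 46 markers of the cell type lists passed edgeR's test between the genotypes at this stage. The summed TPM of 7 CD8 T cell markers was 1511 to 1651 in WT and 765 to 821 in TCF-1 cKO, without overlap, that of 8 B cell markers overlapped, at 9968 to 13151 and 6392 to 10180, and none of the markers was at 0. Over the 9 lists the median log2 fold change lay between -1.45 (CD8 T cell) and 0.20 (erythroid), beside -1.001 for the 10 genes. The part of these markers in the differences was not tested.

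From pre-transplant to day 7, the direction of some of the 10 genes depended on the scale: Il2rg, Stat5a and Stat5b turned in WT, and Il2rg, Il2rb, Jak1 and Stat5a in TCF-1 cKO. In counts normalized by edgeR the median log2 fold change of all genes was -0.30 in WT and -0.29 in TCF-1 cKO, but on log2(TPM + 1) it was -1.06 and -1.43. Genes of the marker lists changed at the same time: 8 of 8 B cell markers were called lower and 7 of 7 CD8 T cell markers higher in both genotypes by edgeR's quasi-likelihood test. In both genotypes 4 of 4 plasma cell and 4 of 6 myeloid markers were also called lower. So were 6 of 6 erythroid markers in WT and 5 of 6 in TCF-1 cKO. Of all genes tested, 10.3% were called lower and 9.7% higher in WT, and 16.8% and 19.7% in TCF-1 cKO. The part of these markers in the results was not tested.

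The stage comparisons use the same libraries as the genotype comparisons. Il2rb rose over this period in WT, from 87.9 ± 11.4 TPM to 422 ± 297 TPM (SD, n = 3), with a log2 fold change of 3.49 ± 0.69 (SE, edgeR's quasi-likelihood test, adjusted p = 0.00946). Its TPM overlapped, since the library labelled WT replicate 3 of day 7 (94.2 TPM) lay below the highest pre-transplant library (99.4 TPM). Jak3 was the other gene called in WT (2.32 ± 0.80, edgeR's quasi-likelihood test, adjusted p = 0.0828), with TPM that also overlapped between the stages, and on log2(TPM + 1) its value was 0.45 and did not pass. These 2 of 10 genes compare with 9.7% of all 16790 genes tested that were called higher. With the offset, Il2ra was also called higher in WT (2.25, edgeR's quasi-likelihood test, adjusted p = 0.0208), beside 12.1% of all genes. None of the 10 was called lower in WT, against 10.3% of all genes. On log2(TPM + 1), limma called Il2rg, Il4ra, Jak1 and Stat3 lower and Il2rb higher in WT, beside 43.5% of 13214 genes called lower and 5.37% called higher.

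In TCF-1 cKO, 4 of the 10 genes were called between the stages. Il2ra was at 2.20, 6.17 and 0.803 TPM pre-transplant and at 12.3, 11.01 and 20.4 TPM at day 7, a log2 fold change of 4.99 ± 0.52 (edgeR's quasi-likelihood test, adjusted p = 0.000196). The pre-transplant values rest on 27 to 52 estimated counts per library, and the day 7 values on 985 to 2289. Il4ra fell from 44.3 ± 19.99 TPM to 2.13 ± 0.622 TPM (SD, n = 3), a log2 fold change of -2.82 ± 0.55 (edgeR's quasi-likelihood test, adjusted p = 0.00472). B cells, which carry Il4ra and Il2rg, had a list of 8 markers. Its summed TPM in the same libraries was 6392 to 10180 pre-transplant and 121 to 195 at day 7. Whether B cell RNA took part in the fall of Il4ra was not tested.

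Il15ra (2.59 ± 0.54) and Il2rb (1.74 ± 0.47) were also called higher in TCF-1 cKO in normalized counts (edgeR's quasi-likelihood test, adjusted p = 0.00666 and 0.0208). On log2(TPM + 1), Il2rb turned to -0.41 and Il15ra was 0.60, and neither passed. Across all 18535 genes tested, 19.7% were called higher and 16.8% lower. On log2(TPM + 1), limma called Il2rg, Il4ra, Jak1, Jak3, Stat5b and Stat3 lower and Il2ra higher, beside 61.8% of 16568 genes called lower and 9.42% called higher. Il2ra and Il4ra were the genes of the set that kept direction and call on both scales in TCF-1 cKO.

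**Figure D4:**
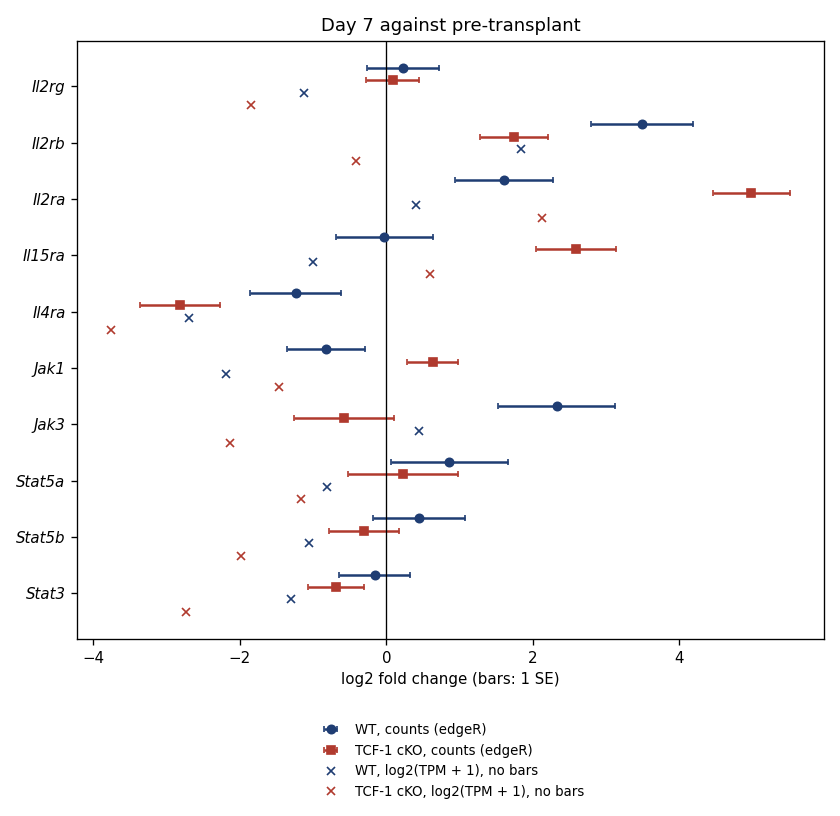
Log2 fold change of day 7 against pre-transplant for the 10 genes (horizontal axis) in WT and TCF-1 cKO, from edgeR-normalized counts (filled symbols, bars 1 SE) and from log2(TPM + 1) (crosses, no bars). The crosses lie to the left of the filled symbols for all 10 genes, and Il2ra in TCF-1 cKO lies furthest to the right, at 4.99 in counts.

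An interaction term in a fit of the 12 libraries tested whether the genotype difference changed from pre-transplant to day 7. None of the 10 genes passed, and edgeR's quasi-likelihood test called 0.00465% of 21526 genes. Of the 10, 5 had an unadjusted p under 0.05, beside 15.7% of all genes. Il2ra (3.11 ± 0.80, adjusted p = 0.233) and Jak3 (-3.16 ± 1.15, adjusted p = 0.25) had the largest values by edgeR's quasi-likelihood test, and DESeq2's Wald test called 3 of the 10, Il2ra, Il15ra and Jak3, and 1713 of the 21526 genes (7.96%). Without the library labelled WT replicate 3 of day 7, 4 genes passed (Il2ra, Il2rb, Il4ra and Jak3), and 2093 genes in all (8.73%).

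The estimated counts of some of these genes also lay on transcripts annotated as retaining an intron. For Jak3 that share of the gene's TPM was 8.79%, 12.5% and 5.39% in WT and 41.8%, 49.3% and 23.8% in TCF-1 cKO pre-transplant. At day 7 it was 2.23%, 1.61% and 6.50% in WT and 10.65%, 16.2% and 9.36% in TCF-1 cKO. At both stages all TCF-1 cKO libraries lay above all WT libraries.

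For Stat3 the share was 8.48% to 13.3% in WT and 28.1% to 46.1% in TCF-1 cKO pre-transplant, and it overlapped at day 7 (1.25% to 8.53% and 7.73% to 16.8%). For Il15ra it was 24.7% to 29.4% in WT and 82.1% to 100% in TCF-1 cKO pre-transplant, where the gene had only 36 to 101 estimated counts. Il4ra went the other way pre-transplant, with 3.15% to 16.4% in WT and 2.15% to 2.69% in TCF-1 cKO, a direction without overlap that 3.62% of the genes compared took. Il2rg had a higher share in TCF-1 cKO at day 7 alone, at 2.82% to 3.10% beside 0.157% to 1.60% in WT.

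Of the genes of the set with more than 1 TPM in every library compared and both coding and intron-retaining transcripts, 3 of 5 had a higher share without overlap pre-transplant and 2 of 6 at day 7. Among all genes that met the same conditions the figure was 15% pre-transplant and 12.8% at day 7. Without the library labelled WT replicate 3, 3 of 6 genes had a higher share without overlap at day 7 (Il2rg, Jak3 and Stat3), beside 23.5% of the tested genes that met the conditions. Over all genes with such transcripts, the median share per library was 18.8% to 24.5% in TCF-1 cKO and 11.2% to 17.8% in WT pre-transplant, and 7.13% to 8.35% and 2.57% to 5.60% at day 7. The library labelled WT replicate 3 had the highest median of the WT libraries at day 7. Whether depth, RNA quality or the cell mixture took part in these shares was not tested.

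**Figure D5:**
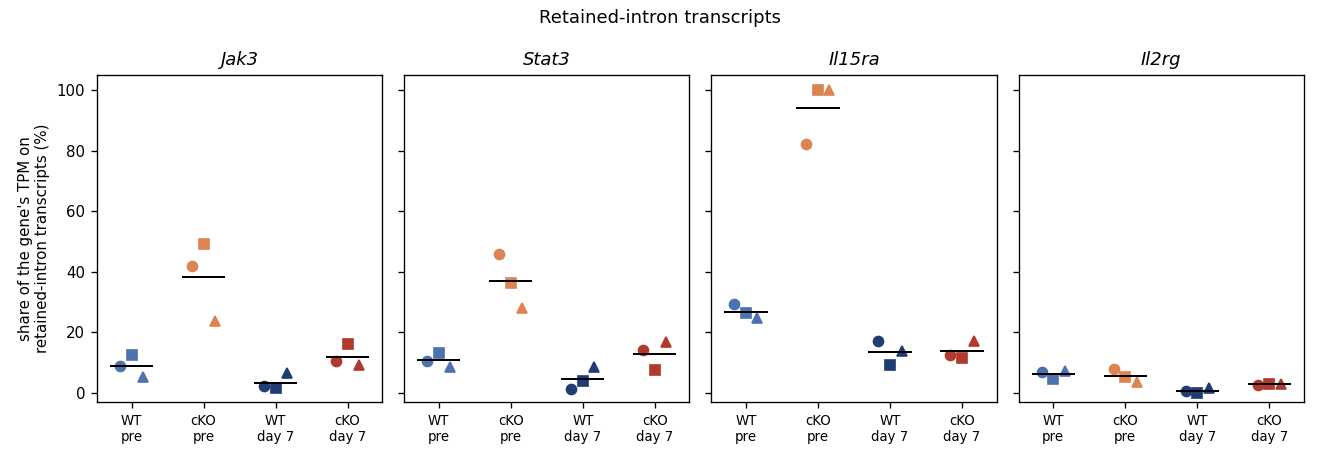
Share of a gene's TPM (vertical axis, %) on transcripts annotated as retaining an intron, for Jak3, Stat3, Il15ra and Il2rg in each library by group, with the mean of 3 libraries as a black line. Jak3 lies higher in all TCF-1 cKO libraries than in all WT libraries at both stages.

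The rest of the pathway was read from 5 lists of 48 genes. At day 7, 21 of the 43 tested were called lower in TCF-1 cKO, beside 15.4% of all genes, and none higher by edgeR's quasi-likelihood test, with a median log2 fold change of -1.51. Without the library labelled WT replicate 3, 23 of 44 were called lower, beside 19.4% of all genes, and 3 higher, beside 9.72%. With the offset for base composition and length, 4 of the 43 were called lower, beside 4.14% of all genes. These included Pias4 and Cish, with adjusted p of 0.0945 and 0.1 by edgeR's quasi-likelihood test. Of the other receptors and ligands, 2 of the 7 tested were called lower, and the median log2 fold change of that list was 0.48. Il21r fell by 2.73 and Crlf2, the receptor chain for TSLP, fell by 3.50 on the log2 scale, whereas Il7r was at -0.11 and did not pass. After the offset Il21r was at -1.42 and Crlf2 at -0.93, and neither passed (edgeR's quasi-likelihood test, adjusted p = 0.121 and 0.214).

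Among the other JAKs and STATs, Tyk2 and Stat6 passed, and Jak2, Stat2 and Stat4 did not. After the offset Tyk2 was at -1.55 and Stat6 at -1.33, and neither passed (edgeR's quasi-likelihood test, adjusted p = 0.134 for both). The list of phosphatases and inhibitors had 8 of 11 genes called lower, among them Cish (-3.72 ± 0.80) and Socs1 (-3.77 ± 0.82), feedback inhibitors of cytokine signalling, and Pias4 (-3.85 ± 0.80), each with an adjusted p of 0.045 by edgeR's quasi-likelihood test. Of the 12 targets 5 were called lower: Bcl2l1, Myc, Pim1, Pim2 and Ccnd3. Mean TPM of Ccnd3, which encodes cyclin D3, was 358 in WT and 44.7 in TCF-1 cKO. Bcl2, Mcl1 and Gzmb did not pass, at -0.03, 0.23 and 0.91 on the log2 scale. Of the signalling partners, Lck, Pik3cd and Shc1 were called lower. None of these 3, of the 5 targets or Socs1 passed after the offset (edgeR's quasi-likelihood test, adjusted p between 0.101 and 0.251). None of the 46 genes tested pre-transplant passed.

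The promoters of the 10 genes were searched for 2 motifs on both strands, in windows of 300 bases that span the start site (RefSeq, GRCm38.p6). Windows were found for 9 of the 10 genes, 12 windows in all. The STAT motif TTCNNNGAA occurred in none of them and in 8.3% of all 32851 windows. CTTTGA, the core of the motif bound by TCF-1, occurred in 2 of the 12 and in 16% of all windows. It lay at position -202 from a start site of Il15ra, on the strand opposite to the gene, and at -40 from a start site of Stat5a, on the strand of the gene, and both stretches are shown with the match in capitals.
Il15ra, chr2:11705493-11705532: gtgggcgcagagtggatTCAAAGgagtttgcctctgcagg
Stat5a, chr11:100860427-100860466: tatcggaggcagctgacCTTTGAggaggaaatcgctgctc
These are matches of letters in short windows and say nothing of binding.

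For each of the 10 genes, the gene outside the set with the most similar pattern was found by Pearson's r of log2 CPM over the 12 libraries, among 21516 genes. Il2rb was most like Akt2 (r = 0.989), Jak3 most like Zyx (r = 0.988), Stat3 most like Mark2 (r = 0.986) and Il4ra most like Cd37 (r = 0.982). Jak1 had the weakest match, Arhgef3, at 0.943. Within the set, Stat5b and Stat3 (r = 0.942) and Il2rg and Stat5b (r = 0.930) were the most alike, and Il2ra and Il4ra were opposed (r = -0.729). The 12 libraries fall into 4 groups, so these values describe mainly the differences between groups.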

How the data were processed

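RNA-seq libraries of donor CD8 T cells were prepared by SMART-Seq HT and Nextera XT and sequenced in paired-end mode. The authors pseudoaligned the reads with kallisto 0.46.2 and deposited estimated counts of 117497 transcripts, unscaled. The deposited TPM values, computed by Kallisto, are scaled for effective length and depth. The submitters' processing notes name mm9 and limma. The transcript release was not given in the sources used here.

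Of the transcripts, 116374 were joined by identifier, without version, to 35855 genes of GENCODE M21 (GRCm38), from which positions, GC content and transcript types were taken. Estimated counts and TPM were summed per gene, and the counts were rounded. Samples were grouped by title. The 10 genes, the 5 pathway lists and the 9 marker lists were chosen with earlier results of these data known. All 10 genes are named, with Tcf7, the pathway lists by count and example, and for each gene its nearest gene by correlation. The values of 1 gene of the lists are not reported here.

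Each comparison was fitted over all genes with edgeR 4.0.16 (R 4.3.3, TMM, filterByExpr, quasi-likelihood test, Benjamini-Hochberg adjustment, FDR below 0.1), with the libraries of the groups compared or, for the interaction, all 12. The SE was taken from the log2 fold change and its F value. Single levels were compared by a two-sided exact permutation test on log2(TPM + 1) in SciPy 1.17.1, with tables made in pandas 2.3.3 (Python 3.11.15). The GC content and length offset removed each library's loess trend (span 0.4, degree 2). Correlations used log2 CPM with a prior count of 2. The fits were tested on simulated data with 200 changed genes.

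Alternatives were other size factors, no filter, limma-voom and limma on log2(TPM + 1) (limma 3.58.1), DESeq2 1.42.0, the offset (also without WT replicate 3 of day 7), the replicate number as a block, 1 fit over all libraries, a pseudocount of 0.1, and leaving out each library. Totals lay between 4520270 and 32657005 estimated counts, and 3 counts correspond to 0.0919 to 0.664 CPM per library. Without molecular identifiers, such floors cover only counting error.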

Additional observations from a re-analysis of the deposited data

How the results depend on the processing

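At day 7 the 7 genes called lower stayed negative under all alternatives run. The offset for GC content and length left 4 of the 10 called, with 829 of 16026 genes in all. The offset by the longest transcript, chosen after seeing the data, also left 4, with 936 of 16026 genes. The offset without WT replicate 3, also chosen after seeing the data, called 7 of the 10 and 3664 of 18183 genes. DESeq2 called 4524 of 16026 genes. Il2ra was called higher and Stat5a was not called by limma-voom, by limma on log2(TPM + 1) and in 1 fit over all 12 libraries, and DESeq2 called both. Jak1 turned to -0.19 under the longest-transcript offset. Leaving out 1 library gave 0 to 8 of the 10 genes and 0 to 5299 genes in all, the highest (of 18183 tested) without WT replicate 3, and Jak1 ranged from -0.24 to 0.30.

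Pre-transplant, the number of genes was 3 with DESeq2's size factors, 619 with no filter, 2 with limma-voom, 1451 with DESeq2, 350 with limma on log2(TPM + 1), 13 with the offset and 3 with 1 fit over all 12 libraries. No filter and DESeq2 each called 1 of the 10 genes, Stat5b, beside 619 of 32123 and 1451 of 18757 genes. Leaving out 1 library gave 0 to 7 of the 10 and 0 to 2739 genes in all, the highest (of 21575 tested) without TCF-1 cKO replicate 3.

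For day 7 against pre-transplant in WT, limma on log2(TPM + 1) called 5 of the 10 and 6459 of 13214 genes (43.5% of all tested lower and 5.37% higher). There limma-voom called 1 of the 10 and 3363 of 16790 genes. Il2ra was called there by DESeq2, with either offset and in 1 fit over all libraries. On the log2(TPM + 1) scale Il2rg turned to -1.12, Stat5a to -0.80 and Stat5b to -1.05. Il15ra, near 0, turned to 0.11 with DESeq2's size factors and with DESeq2, to 0.0703 with no filter and 0.0704 with the offset, to 0.41 with the longest-transcript offset and to 0.17 with 1 fit over all libraries. Stat3 turned to 0.0513 with DESeq2's size factors and with DESeq2, to 0.15 with the offset, to 0.50 with the longest-transcript offset and to 0.0825 with 1 fit over all libraries. Jak1 turned to 0.0915 with the longest-transcript offset. Leaving out 1 library gave 1 to 3 of the 10 and from 1579 of 18860 to 4156 of 18719 genes, with Il15ra from -0.35 to 0.36 and Stat3 from -0.24 to 0.32.

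In TCF-1 cKO, limma on log2(TPM + 1) called 7 of the 10 and 11796 of 16568 genes (61.8% of all tested lower and 9.42% higher). There Il2rg turned to -1.85, Il2rb to -0.41, Jak1 to -1.46 and Stat5a to -1.16. With the offset, Il2rg turned to -0.62, Jak3 to 0.76 and Stat5b to 0.71. With the longest-transcript offset these were -0.32, 0.30 and 0.28, and Stat3 was 0.0021. Leaving out 1 library gave 4 to 6 of the 10 and from 5242 of 19750 to 7114 of 21454 genes, with Il2rg from -0.0878 to 0.45, Jak3 from -0.97 to 0.57, Stat5a from -0.18 to 1.65 and Stat5b from -0.81 to 0.063.

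For the interaction, no filter called 2 of the 10 and 580 of 33662 genes, DESeq2 3 and 1713 of 21526, limma on log2(TPM + 1) 53 genes, and either offset 2 genes. Stat5a turned to 0.0515 with limma-voom, to 0.52 with the offset and to 0.63 with the longest-transcript offset. Leaving out 1 library gave 0 to 4 of the 10 and 0 to 2093 genes (the highest of 23972 tested), with Il2rg from -0.76 to 0.0139 and Stat5a from -1.62 to 0.32.

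Same-numbered libraries deviated together weakly or not at all (correlations from -0.106 to 0.115), and by the labels they share only a number. At day 7 each WT library correlated best with the TCF-1 cKO library of its own number, though weakly (0.0174 to 0.0659). That is a hint from the data and not from the design. With the replicate number as a block, 0 genes passed pre-transplant and for the interaction, and at day 7 2038 genes passed. Jak3 then had an adjusted p of 0.107 and Stat5a of 0.279 by edgeR's quasi-likelihood test, and 1 of the 10 genes was called between the WT stages, beside 3097 of 16790 genes. The replicate block with the offset gave 12 genes pre-transplant, 2 genes and 0 of the 10 at day 7, and 0 genes for the interaction. In WT between stages it turned Il15ra to 0.0229 and Stat3 to 0.10, in TCF-1 cKO Il2rg to -0.60, Jak3 to 0.79 and Stat5b to 0.65, and in the interaction Stat5a to 0.24. The cause of these changes was not tested. Depth limits the pre-transplant TCF-1 cKO values of Il2ra and Il15ra most, at 27 to 101 estimated counts.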
